A study of Mus musculus with 12 samples.

Results

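The comparison described here is the knockdown of Stag2 in proliferating NU1 cells. It comprises 6 of the 12 libraries of the series: the control and the knockdown library of experiments 5, 7 and 9, paired by experiment number and described over every gene. NU1 is a line of normal mouse urothelial cells that became immortal on its own during passaging. All 6 cultures grew in Epilife medium with 15% chelated serum, EGF at 5 ng/ml, insulin and transferrin, T3, hydrocortisone, cholera toxin and 0.3 mM CaCl2. The 3 control libraries, labelled WT, carried the non-targeting hairpin shNT, and the 3 knockdown libraries, labelled Stag2-KD, carried sh4, which was delivered by lentivirus. The knockdown thus rests on 1 hairpin. Each experiment had a batch number of its own in the labels, so a pair of libraries shares its batch. The other 6 libraries hold the same hairpins in cells made quiescent by confluence, 1 µM rosiglitazone and 0.5 µM erlotinib and labelled day 7. The question, from the series' design text, is how the loss of Stag2 alters the transcriptome.

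Cohesin is a ring of SMC and kleisin proteins that holds sister chromatids together and extrudes loops of chromatin. Its STAG subunit is either STAG1 or STAG2, and the gene for STAG2 lies on the X chromosome. STAG2 is among the genes most often inactivated in human bladder cancer, which arises from the urothelium.

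Total counts were 17954813 to 18261759 in the control and 17012111 to 17442121 in the knockdown libraries. Epithelial markers were abundant: Krt8, a keratin of simple and luminal epithelia, stood at 3493 to 5939 CPM (counts scaled by TMM to a common library total) over the 6 libraries, and Epcam at 526 to 888 CPM. The summed level of the 16 urothelial and epithelial markers was 12240 to 17601 CPM in control and 14304 to 16449 CPM in knockdown libraries. The uroplakins, Trp63 and Krt5 were low or absent. Upk3a, a uroplakin of umbrella cells, and Trp63, a factor of basal cells, had 0 counts in the 6 libraries. Upk2 reached at most 0.673 CPM, Upk1a 2.26, Upk3b 2.74 and Krt5 6.6 CPM. Other markers of the list were expressed: Gata3 stood at 26.5 to 39.0 CPM, Foxa1 at 9.49 to 37.4 CPM and Krt7 at 1627 to 3257 CPM. The 10 fibroblast markers summed to at most 2.56 CPM, with 6 of them at 0. Leukocyte markers summed to 15.6 to 33.3 CPM in control and 26.3 to 55.6 CPM in knockdown libraries, nearly all from Csf1r and Cd68, while Cd3e was at 0 and Ptprc reached 0.344 CPM. In such bulk libraries, fewer cells expressing a gene and less of its RNA per cell cannot be told apart.

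Stag2 (chromosome X, 42149297 to 42277186, GRCm38) was examined first, since the hairpin targets it. It stood at 139, 145 and 113 CPM in the control libraries of experiments 5, 7 and 9, and at 33.3, 24.9 and 24.6 CPM in the knockdown libraries. Every knockdown library lay below every control. The knockdown libraries kept 23.9%, 17.1% and 21.8% of the level of their own control, for a log2 fold change of -2.26 (SE 0.17, 95% interval -2.63 to -1.88, edgeR quasi-likelihood test with experiment as a term, Benjamini-Hochberg adjusted p = 0.000717). Without experiment 9 it was -2.29 with an edgeR adjusted p of 0.0552.

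Few other transcripts were lower together with Stag2. Of 12406 genes tested, 3 (0.0242%) passed an adjusted p of 0.05 in edgeR, and all 3 were lower: Stag2, Pdcl3 and Phtf1. In this fit to all 12 libraries no gene passed in the higher direction, and 645 genes (5.2%) had an unadjusted p under 0.05, 355 (2.86%) higher and 290 (2.34%) lower. Without experiment 9 no gene was called. DESeq2 called 20 genes (0.161%), 17 lower and 3 higher. An edgeR fit to the 6 proliferating libraries alone called 18 of 11978 genes (0.15%), 16 lower and 2 higher. Stag2, Pdcl3 and Phtf1 were called in both, and so were Phb, Mmd, Scly, Ctnna1 and Prkaa1, which did not pass in the fit to all 12 libraries. The share of genes at an unadjusted p under 0.05 also depended on the fit. The fit to the 6 proliferating libraries had 966 genes higher and 1042 (8.7%) lower. EdgeR with separate experiment terms in each state had 690 higher and 721 (5.81%) lower.

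Pdcl3 encodes a phosducin-like protein that works with the cytosolic chaperonin in protein folding (chromosome 1). Its level was 65.3, 58.5 and 54.2 CPM in control and 29.0, 26.2 and 23.4 CPM in knockdown libraries of experiments 5, 7 and 9. The knockdown level was 44.1% ± 0.865 (SD, n = 3) of the control, the same share in each experiment to within 2 percentage points. On the log2 scale the difference was -1.18 (SE 0.13, edgeR adjusted p = 0.00985). None of the other 14 tested genes of the phosducin family, the chaperonin and prefoldin passed, and Cct2, a chaperonin subunit, had a log2 fold change of -0.01 (SE 0.12).

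Phtf1 encodes a membrane protein of the endoplasmic reticulum (chromosome 3). It stood at 58.7, 58.5 and 54.9 CPM in control and at 28.4, 29.1 and 28.5 CPM in knockdown libraries. The spread within each group was small beside the difference, and the knockdown level was 50.03% ± 1.77 (SD, n = 3) of the control. On the log2 scale the difference was -0.998 (SE 0.11, edgeR adjusted p = 0.00985). The calls of Pdcl3 and Phtf1 rest on the full set of libraries: with 1 library or 1 experiment left out, Pdcl3 was called in 1 of 9 fits and Phtf1 in 0, while the fold changes stayed between -1.24 and -0.96.

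The next 5 genes by p-value did not pass. For each of them the 3 knockdown libraries lay below the 3 controls. Over all tested genes, the knockdown libraries lay wholly below the controls for 329 genes (2.65%) and wholly above them for 329 (2.65%). Phb, which encodes prohibitin, a scaffold of the inner mitochondrial membrane, stood at 115, 183 and 211 CPM in control and 72.3, 92.8 and 90.0 CPM in knockdown libraries (log2 fold change -0.98, SE 0.13, edgeR adjusted p = 0.0503). The control of experiment 5 was the lowest of its group for Phb, and the knockdown library of that experiment kept the largest share of it, 62.7%, a share computed from that same control.

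Mmd, a membrane protein of the progestin and adipoQ receptor family, kept the lowest share of its control after Stag2 among the genes described here. Its control levels differed between experiments, at 72.9, 36.1 and 33.6 CPM, and the knockdown levels of 23.96, 11.4 and 12.2 CPM followed them at 33.6% ± 2.36 (SD, n = 3) of the control (log2 fold change -1.57, SE 0.22, edgeR adjusted p = 0.0503). Scly, the lyase that recycles selenium from selenocysteine, stood at 31.2, 34.4 and 27.0 CPM in control and 18.5, 18.8 and 13.4 CPM in knockdown libraries (log2 fold change -0.88, SE 0.13, edgeR adjusted p = 0.0595).

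Ctnna1 encodes alpha-catenin, the link between E-cadherin junctions and actin, and was the most abundant of these transcripts. Its level was 1619, 1564 and 1177 CPM in control and 901, 751 and 504 CPM in knockdown libraries (log2 fold change -1.03, SE 0.15, edgeR adjusted p = 0.0595). Neither of its junction partners passed the test: Cdh1 had a log2 fold change of -0.12 (SE 0.18) and Ctnnb1 of 0.09 (SE 0.13). In the fit to the 6 proliferating libraries the edgeR adjusted p was 0.0146 for Phb, 0.000278 for Mmd, 0.0198 for Scly and 0.00701 for Ctnna1. Prkaa1, a catalytic subunit of the energy-sensing kinase AMPK, stood at 79.0, 87.9 and 74.6 CPM in control and 57.1, 54.3 and 50.5 CPM in knockdown libraries (log2 fold change -0.57, SE 0.10, edgeR adjusted p = 0.243, and 0.0448 in the fit to the 6 proliferating libraries).

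**Figure D1:**
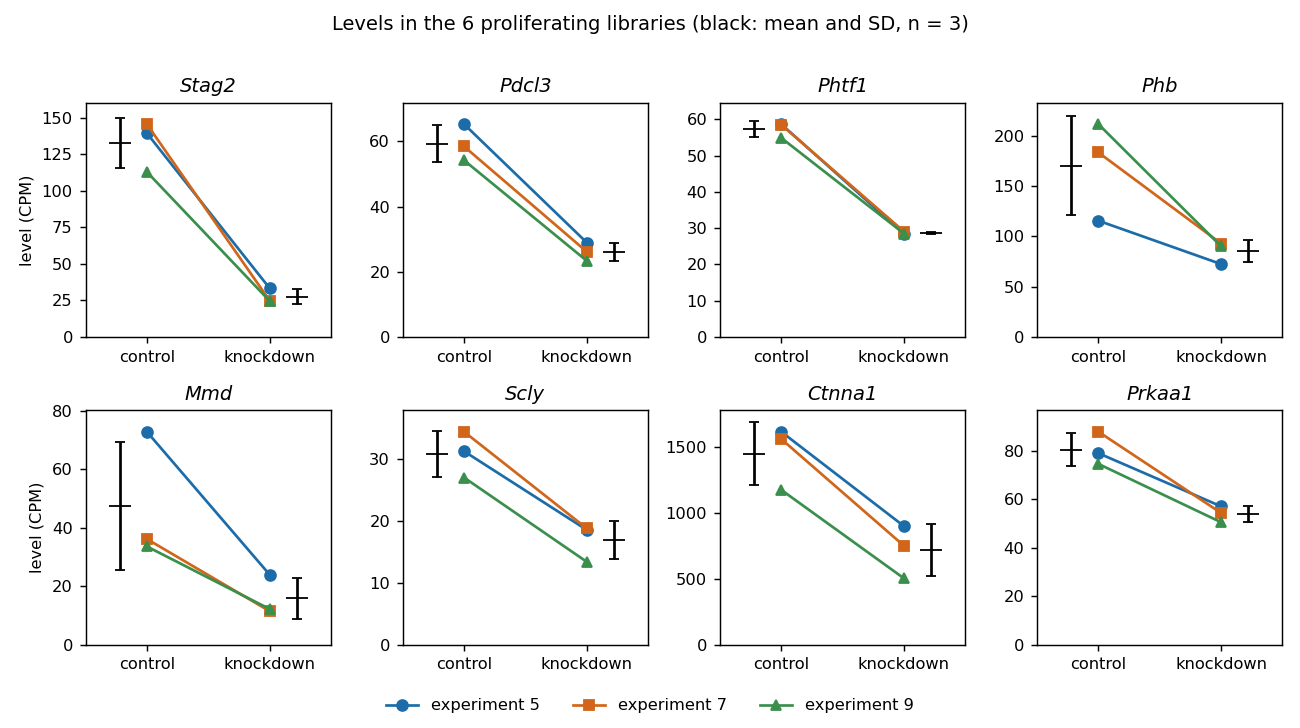
Levels of 8 genes (y axes, CPM from 0) in the control and knockdown libraries; a line joins the libraries of 1 experiment, and the black bars are the mean and SD of 3 libraries beside each group. Every line slopes down, and no knockdown library reaches a control in these 8 genes, which are the 8 with the smallest p-values.

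Among the 20 genes with the smallest p-values, 17 had negative log2 fold changes, and the same 17 were also negative in the quiescent libraries, which have controls of their own but share the experiments and batches. Of the 20, 18 were called in quiescent cells, where 440 genes (3.55%) were called by the same edgeR fit. The target itself was lower there: Stag2 kept a mean of 21.0% of its control in proliferating and 10.1% in quiescent cells. Its quiescent log2 fold change was -3.32, and the difference between the states had an edgeR adjusted p of 0.526. The part of the depth of knockdown in the larger quiescent values was not tested. Prkaa1 had a quiescent log2 fold change of -1.04 and Ctnna1 of -1.75. Csgalnact2, an enzyme that starts and extends chondroitin sulfate chains, gave 30.6, 32.2 and 30.5 CPM in proliferating control and 22.1, 19.1 and 12.9 CPM in knockdown libraries. The fitted log2 difference of Csgalnact2 in proliferating cells was -0.81 (SE 0.15, edgeR adjusted p = 0.349, DESeq2 adjusted p = 0.00398), and that in quiescent cells was -2.06 (edgeR adjusted p = 0.000619). The difference between the states itself was called for no gene (0 of 12406, with 590 genes or 4.76% at an unadjusted p under 0.05, and 29 genes called by DESeq2), so no effect can be said to belong to proliferating cells on this test. Across the tested genes other than Stag2, the 2 sets of log2 fold changes had a Pearson r of 0.478, a description over genes whose libraries share experiments.

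Some of the lower genes had 3′ UTR letters in common. For each word of 7 bases held by the longest annotated 3′ UTR of at least 100 tested genes, the median log2 fold change of the genes with the word was set against that of the genes without it (11853 genes with a UTR, 15708 words, GENCODE M21). The word with the most negative difference was GACGCAA, held by 108 genes, with a difference of -0.12 (-0.0525 without the knockdown library of experiment 7), and the next was TGACGCA, held by 199 genes, with -0.11. They overlap by 6 bases. Of the first 10 words, 8 contained the run GACGC. In quiescent cells these words again ranked 1 and 2, with differences of -0.27 and -0.26. Since the words were picked by these fold changes, and such a word was known from earlier results of these data, the values are a description without a test.

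Of the 8 genes with the smallest p-values, 6 hold one of these words or both. The sites of 5 are shown, without that of Ctnna1, with the words in capitals and 10 bases on either side. Each is the sense strand of the transcript in GRCm38, the assembly also called mm10.
Pdcl3, chr1:38996309-38996335, plus strand: cttcttgataTGACGCAttgtctgggt
Phtf1, chr3:104007347-104007374, plus strand: gcccgaagcaTGACGCAActgtctctta
Mmd, chr11:90277407-90277433, plus strand: acgattccatTGACGCAcacccccact
Scly, chr1:91321007-91321034, plus strand: gaccaaaggaTGACGCAAcccgtgaaaa
Prkaa1, chr15:5181452-5181478, plus strand: caagtcgggaGACGCAAgagcttaata
The sites of Phtf1 and Scly carry both words as 1 run of 8 bases. Among the other named genes, Tgfbr2 and Cebpb hold that run too. Their log2 fold changes were -0.02 (SE 0.12) and -0.53 (SE 0.25), and neither passed the edgeR threshold.

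Either word stood in the 3′ UTR of 278 of 11853 genes (2.35%). Because the words were picked by these same fold changes, low values of their holders in proliferating cells follow in part from the choice. Of the 10 genes with a negative log2 fold change and the smallest p-values, 6 held one: Pdcl3, Phtf1, Mmd, Scly, Ctnna1 and Prkaa1. Stag2, Phb, Csgalnact2 and Ccdc59 held neither word. Of the 278 holders, 197 (70.9%) had a log2 fold change below 0, against 50.5% of the genes with neither word, and 119 (42.8%) were lower in all 3 experiments, against 21.2%. At an unadjusted p under 0.01, 18 of the 278 holders were lower and 0 were higher, beside 60 lower and 47 higher of the 11575 genes with neither word. The median of the holders was -0.10 over all experiments, and -0.08, -0.19 and -0.12 in experiments 5, 7 and 9. The 23 genes with the joined run TGACGCAA had a median of -0.20, with 19 of them (82.6%) below 0.

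**Figure D2:**
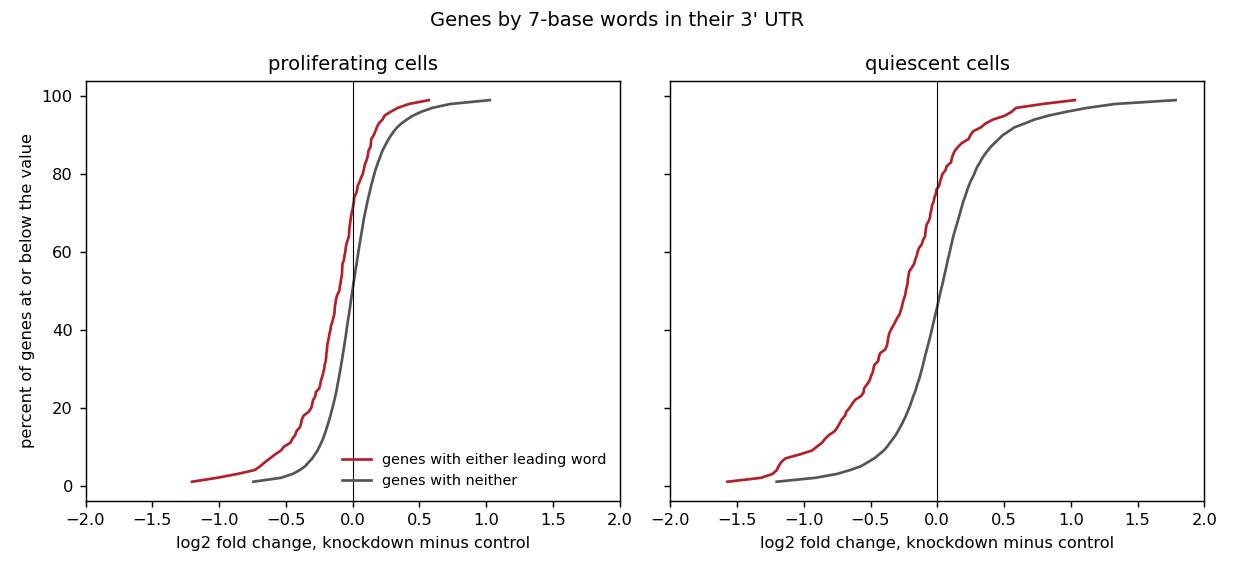
Percent of genes (y axis) at or below each log2 fold change (x axis, knockdown minus control) for genes with either leading word in the 3′ UTR and genes with neither, in proliferating (left) and quiescent cells (right), from the 1st to the 99th percentile. The curve of the holders lies to the left of the other: its median is -0.10 against -0.00 in proliferating and -0.24 against 0.03 in quiescent cells. The words were picked by the proliferating fold changes, so the left panel is no test of them.

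The holders differed from other genes in UTR length, with a median of 2745 bases against 1162 for genes with neither word, and the part of length in the difference was not tested. As background, the guide strand made from a short hairpin can pair through its first bases with the 3′ UTRs of transcripts other than its target. The sequence of sh4 is not given in the sources used here, so a match of the words to the hairpin was not tested.

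Other cohesin genes did not pass the test. Of 17 cohesin genes tested, Stag2 was the one called, and the other 16 had log2 fold changes from -0.38 to 0.07, with a 95% interval that held 0 for each. For 13 of the 16 the interval lay within a 1.5-fold change either way. Stag1, which encodes the alternative STAG subunit, stood at 84.1, 85.7 and 64.8 CPM in control and 79.3, 85.8 and 79.4 CPM in knockdown libraries (log2 fold change 0.07, SE 0.10, 95% interval -0.15 to 0.29). The groups overlapped. The core ring genes gave -0.13 for Smc1a (SE 0.09), -0.07 for Smc3 (SE 0.10) and -0.10 for Rad21 (SE 0.12). Nipbl, the loader, had -0.08 (SE 0.14), Wapal, which releases the ring, 0.02 (SE 0.11), and Ctcf, the factor at which loops end, -0.05 (SE 0.10).

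**Figure D3:**
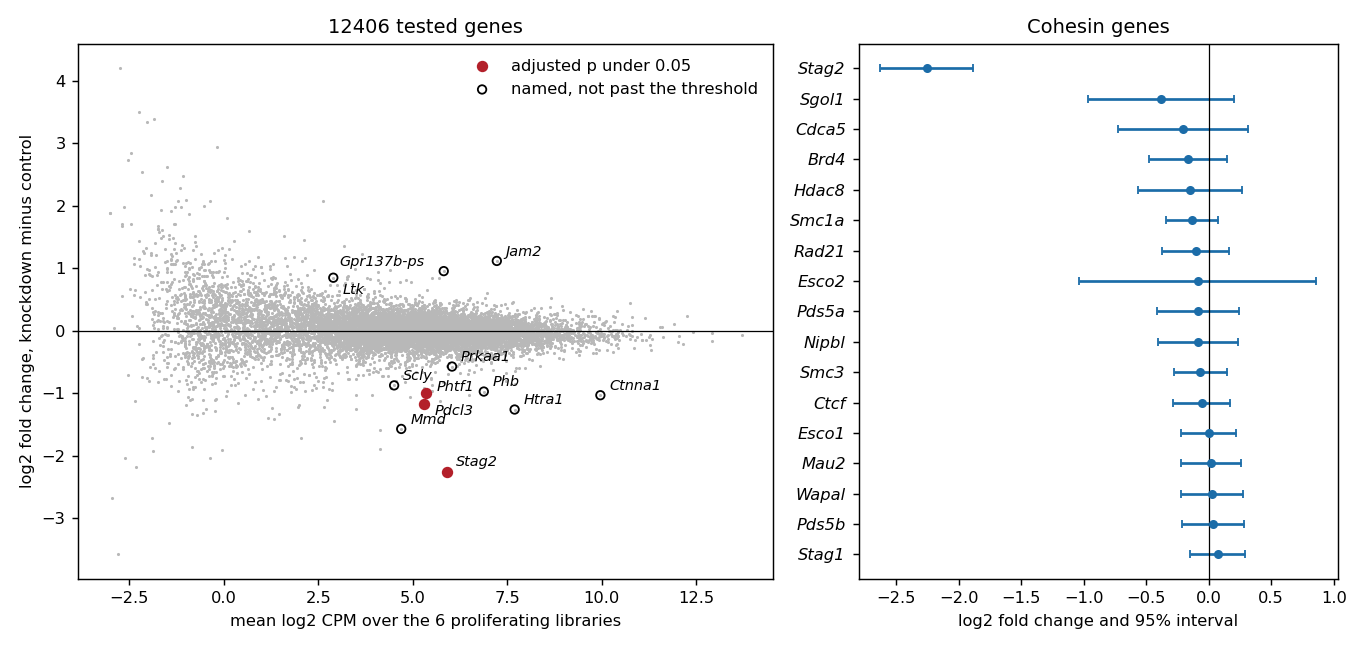
Left: log2 fold change of each of 12406 tested genes (y axis) against its mean log2 CPM over the 6 proliferating libraries (x axis), with the 3 called genes filled and 9 named genes that did not pass as open circles. Right: log2 fold change and 95% interval of the 17 cohesin genes, where the interval of Stag2 lies apart from 0 and the others hold it.

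Large differences were rare among well-expressed genes. Of 10329 genes whose log2 CPM averaged 2 or more, 25 had a log2 fold change beyond 1 either way, 18 lower and 7 higher. The 95% interval lay within a 1.5-fold change either way for 7641 of the 12406 tested genes (61.6%), and within 2-fold for 10460 (84.3%). The experiments differed in spread: the SD over genes of the within-experiment log2 differences was 0.26, 0.33 and 0.49 in experiments 5, 7 and 9. Across genes, these differences had a Pearson r of 0.204 between experiments 5 and 7, 0.169 between 5 and 9 and 0.406 between 7 and 9, as a description over genes.

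Among genes whose log2 CPM averaged 2 or more, those with the largest positive values at an unadjusted p under 0.01 did not pass the edgeR threshold and are given as values. Jam2, a junctional adhesion molecule, stood at 101, 123 and 89.0 CPM in control and 125, 197 and 411 CPM in knockdown libraries (log2 fold change 1.12, SE 0.35, edgeR adjusted p = 0.948). Its knockdown libraries lay above the controls, but the difference in experiment 9 was 2.21 on the log2 scale against 0.31 in experiment 5. Ltk, a receptor tyrosine kinase, was steadier at 5.11, 6.52 and 4.89 CPM in control and 9.03, 9.47 and 11.2 CPM in knockdown libraries (log2 fold change 0.85, SE 0.16, edgeR adjusted p = 0.323), and DESeq2 called it (adjusted p = 0.00815). Gpr137b-ps, a pseudogene by its symbol whose reads may be shared with its parent gene and whose level is therefore uncertain, had 50.9, 41.0 and 32.7 CPM in control and 69.2, 76.8 and 89.5 CPM in knockdown libraries. DESeq2 called Gpr137b-ps (adjusted p = 0.013). Ankk1, a kinase gene below that mean level, was low throughout, at 0.281, 0.289 and 0.284 CPM in control and 0.583, 1.91 and 5.39 CPM in knockdown libraries. DESeq2 called Ankk1 (adjusted p = 0.0273). Tmprss4, a membrane serine protease, had a log2 fold change of 0.84 and Cd38, an NAD-consuming ectoenzyme, of 0.74, neither past the threshold.

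On the negative side, Htra1, a secreted serine protease, stood at 242, 271 and 495 CPM in control and 174, 118 and 121 CPM in knockdown libraries (log2 fold change -1.26, SE 0.27, edgeR adjusted p = 0.553, DESeq2 adjusted p = 0.00224). The difference was -0.47, -1.198 and -2.03 on the log2 scale in experiments 5, 7 and 9, in the order of the control levels. Each difference is computed from its control, so the 2 orders are not independent. Skp2, the F-box protein that marks p27 for degradation, had 15.5, 22.7 and 28.9 CPM in control and 8.28, 9.12 and 15.3 CPM in knockdown libraries (log2 fold change -1.03, SE 0.26, edgeR adjusted p = 0.848). Nrp2, a receptor for semaphorins and VEGF, had 24.7, 44.4 and 23.2 CPM in control and 14.3, 21.7 and 11.9 CPM in knockdown libraries. Both were called in the fit to the 6 proliferating libraries, with adjusted p = 0.0244 for Skp2 and 0.0146 for Nrp2 in edgeR. That fit takes the spread from these libraries alone.

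The gene lists are described by counts and medians beside those of all tested genes, whose median was -0.00, with 50.5% below 0 and 49.5% above it, 21.3% lower and 20% higher in all 3 experiments. Of the 27 lists, 2 held a called gene, Stag2 among the cohesin genes and Pdcl3 among the phosducin and chaperonin genes. Stag2 is the hairpin's target, and the lists were chosen with earlier results of these data known, so this count is no test of them.

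Genes of the Atf4 stress response had the most negative median. Atf4 is the transcription factor that raises amino acid uptake and synthesis when amino acids run short or proteins misfold. Of 33 genes tested, 29 had negative log2 fold changes, 25 were lower in all 3 experiments, the median was -0.40 and 0 were called. The medians were -0.19, -0.26 and -0.57 in experiments 5, 7 and 9. Trib3, a pseudokinase and target of Atf4, stood at 33.0, 173 and 333 CPM in control and 19.2, 111 and 130 CPM in knockdown libraries. Each knockdown library lay below its own control, with log2 differences of -0.78, -0.64 and -1.36 in experiments 5, 7 and 9. The groups overlapped widely, as the control levels differed between experiments. In the fit to all 12 libraries, with 1 term per experiment for both states, the log2 difference was -1.02 (SE 0.62, edgeR adjusted p = 0.953). Slc7a11, the cystine transporter, had 11.8, 56.1 and 79.8 CPM in control and 7.402, 31.3 and 52.7 CPM in knockdown libraries. Slc7a5, the transporter of large neutral amino acids, had 103, 458 and 388 CPM in control and 67.3, 336 and 233 CPM in knockdown libraries. Asns, the asparagine synthetase, had 125, 443 and 555 CPM in control and 98.3, 371 and 348 CPM in knockdown libraries. Gdf15, a stress cytokine, went the other way, from 68.0, 166 and 139 CPM to 90.2, 206 and 151 CPM.

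The level of this list moved with the experiment more than with the hairpin. The median over its members of the ratio of the control of experiment 7 to that of experiment 5 was 2.71, and for experiment 9 it was 3.84. In 30 of the 33 members the control of experiment 9 lay above that of experiment 5. The p-values of the list depended on the form of the experiment term. With 1 term per experiment for both states, 0 of 33 genes had an unadjusted p under 0.05, while with separate terms in each state 20 did, all lower, against 5.81% of all genes. In the fit to the 6 proliferating libraries, 26 of 32 were lower at an unadjusted p under 0.05, against 8.7% of all genes, and 3 were called: Trib3 and Slc7a5 (edgeR adjusted p = 0.0448 for each) and Slc7a11 (edgeR adjusted p = 0.0399). In quiescent cells the list's median was -0.07.

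**Figure D4:**
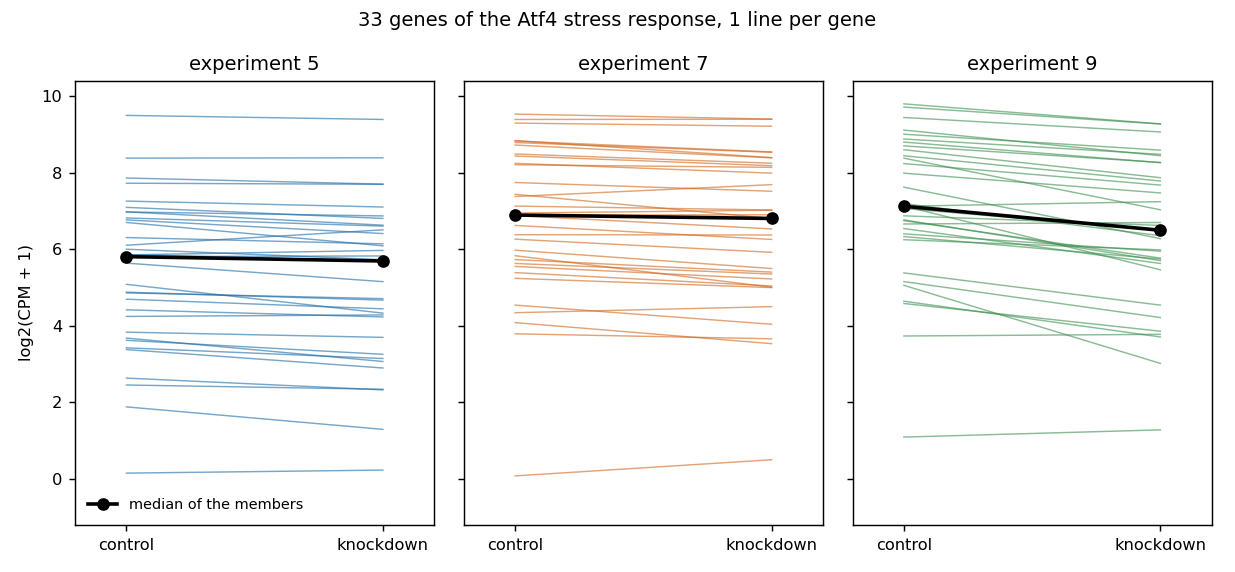
Level of the 33 Atf4 stress response genes (y axis, log2 of CPM + 1) in control and knockdown libraries, 1 panel per experiment, with the median of the members in black. Most lines slope down in each panel (27, 27 and 29 of the 33 genes), and the panels of experiments 7 and 9 start higher than that of experiment 5.

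Most cell-cycle genes had negative values, but not in every experiment. Of 55 genes of the G1/S transition and replication, 47 had negative log2 fold changes and 24 were lower in all 3 experiments, with a median of -0.13 and 0 called. Cdt1, which licenses replication origins, had 47.9, 54.8 and 73.0 CPM in control and 31.9, 32.5 and 39.5 CPM in knockdown libraries (log2 fold change -0.76, SE 0.25, edgeR adjusted p = 0.948), without overlap. It was called in the fit to the 6 proliferating libraries (edgeR adjusted p = 0.0244). Of 60 genes of G2/M and mitosis, 56 had negative log2 fold changes, but only 7 were lower in all 3 experiments: the medians were -0.53, -0.21 and 0.17 in experiments 5, 7 and 9. Mki67, the proliferation antigen, shows this with 185, 225 and 190 CPM in control and 110, 192 and 264 CPM in knockdown libraries. Of 20 genes of the DREAM complex, the pocket proteins and other E2F factors with Mybl2 and Foxm1, 0 were called and the log2 fold changes ran from -0.18 to 0.21. The 13 CDK inhibitors and D-type cyclins with their kinases had a median of 0.17, with 5 higher in all 3 experiments. Cdkn1a, the inhibitor p21, was at 565, 468 and 337 CPM in control and 682, 596 and 437 CPM in knockdown libraries (log2 fold change 0.33, SE 0.11, edgeR adjusted p = 0.948). The 28 p53 targets, which include it, had a median of 0.07 and 10 were higher in all 3 experiments.

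Epithelial lists were mixed. Of 28 genes of urothelial differentiation, 21 had positive log2 fold changes, with medians of -0.08, 0.17 and 0.37 in experiments 5, 7 and 9 and 0 called. Within that list, Rarg, a retinoic acid receptor, had 94.98, 112 and 89.8 CPM in control and 72.7, 79.5 and 55.0 CPM in knockdown libraries (log2 fold change -0.52, SE 0.11, edgeR adjusted p = 0.553). Its groups did not overlap, and DESeq2 called it (adjusted p = 0.0465). Krt8 had a log2 fold change of 0.24 (SE 0.19). Of 23 basal genes, 10 were lower in all 3 experiments, and the median was -0.15. Col17a1, a hemidesmosome collagen, had the highest value of that list at 1.71 but stood at no more than 1.03 CPM in a library. Of 31 adhesion and junction genes, 23 had positive values and the median was 0.09, with Ctnna1 at the bottom.

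**Figure D5:**
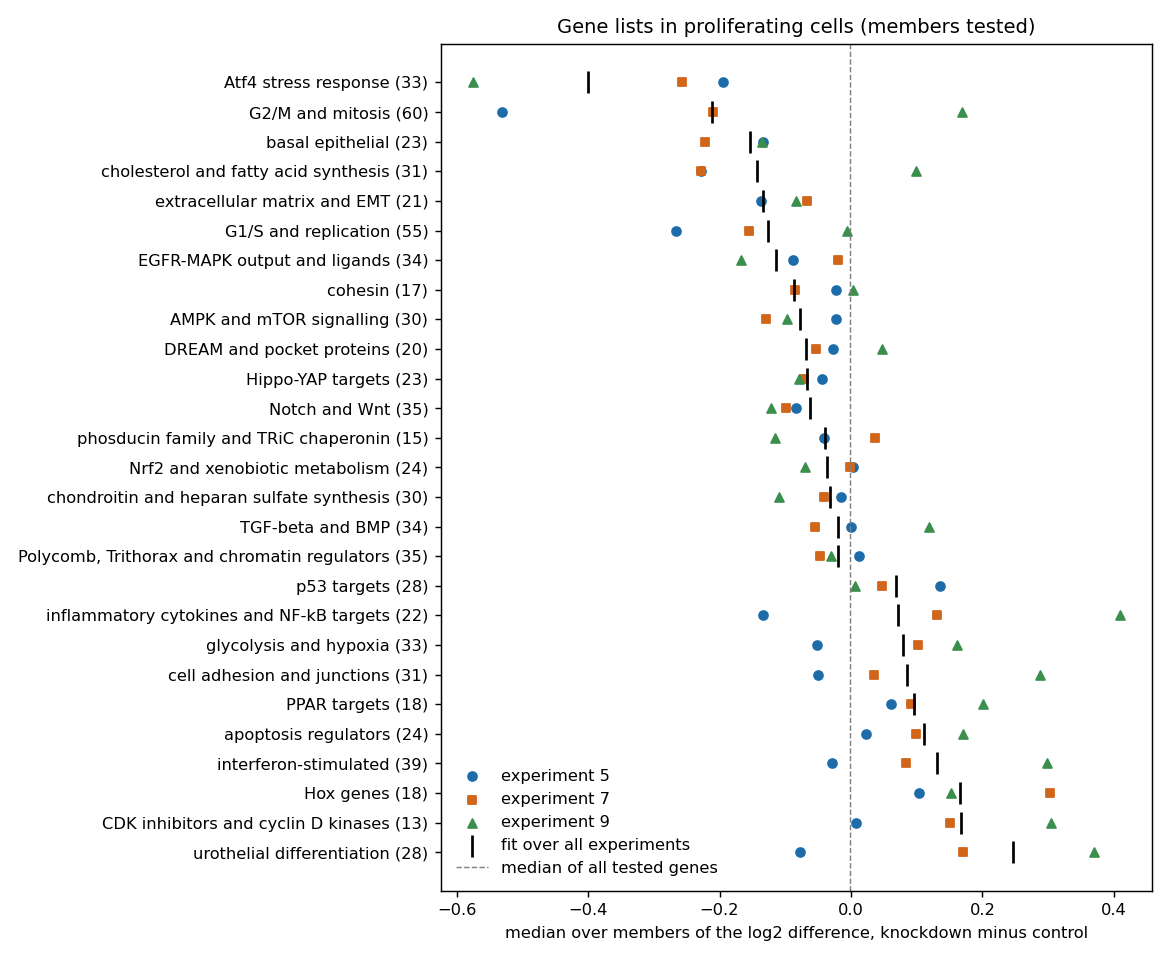
Median over the members of each of 27 gene lists of the log2 difference between knockdown and control (x axis), in each experiment (symbols) and in the fit over all experiments (black bars); the number of members tested is in brackets. The Atf4 list lies to the left of 0 in each experiment, and the G2/M list spans from -0.53 to 0.17.

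Growth-factor, metabolic and signalling lists held no called gene. Areg, a ligand of the EGF receptor, stood at 39.6, 62.0 and 92.3 CPM in control and 31.1, 46.9 and 27.4 CPM in knockdown libraries (log2 fold change -0.88, SE 0.26, edgeR adjusted p = 0.948). The groups overlapped across experiments, although each knockdown library lay below its own control. Egfr itself had 133, 183 and 166 CPM in control and 119, 113 and 119 CPM in knockdown libraries (log2 fold change -0.44, SE 0.18, edgeR adjusted p = 0.948). The 34 genes of that list had a median of -0.11, with 12 lower in all 3 experiments. Of 31 genes of cholesterol and fatty acid synthesis, 23 had negative values, with medians of -0.23, -0.23 and 0.10 in experiments 5, 7 and 9. Srebf2, the factor that drives cholesterol synthesis, was at 386, 384 and 430 CPM in control and 298, 232 and 287 CPM in knockdown libraries (log2 fold change -0.56, SE 0.14, edgeR adjusted p = 0.848). Of 30 AMPK and mTOR genes, 13 were lower in all 3 experiments, with Prkaa1 the lowest.

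The 39 interferon-stimulated genes had medians of -0.03, 0.08 and 0.30, and the 22 tested inflammatory cytokines and NF-kB targets -0.13, 0.13 and 0.41, in experiments 5, 7 and 9. Of 18 Hox genes tested, 8 were higher in all 3 experiments and the median was 0.17. Hoxb3 had 35.4, 29.6 and 16.4 CPM in control and 43.6, 36.1 and 27.0 CPM in knockdown libraries (log2 fold change 0.43, SE 0.13, edgeR adjusted p = 0.948). Hox genes overlap antisense transcripts, and how strand was used in counting is not given in the sources used here. The medians of the lists of PPAR targets (0.10), apoptosis regulators (0.11), glycolysis and hypoxia (0.08), TGF-beta and BMP (-0.02), Hippo-YAP targets (-0.07), Notch and Wnt (-0.06), chromatin regulators (-0.02), Nrf2 and xenobiotic metabolism (-0.04), proteoglycan synthesis (-0.03) and extracellular matrix (-0.13) lay within 0.15 of 0.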

How the data were processed

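Per the labels' protocols, polyadenylated RNA (mean RIN 9.7) was made into stranded libraries with 8 PCR cycles, with ERCC spike-ins added. The submitters' processing notes name Bowtie, TopHat, HTSeq, DESeq2 and mm10. The authors deposited raw counts for 23337 gene symbols, of which 5762 had no count; 0 rows were ERCC. The analysis used edgeR 4.0.16 in R 4.3.3: filterByExpr (minimum count 10), TMM, 4 group means and experiment as an additive term over all 12 libraries, glmQLFTest, Benjamini-Hochberg threshold 0.05. CPM uses TMM-scaled totals, and per-experiment differences are of log2 CPM with a prior count of 2. The tests were run on simulated data in which each experiment effect was the same in both states. That run could not check this assumption of the fit. DESeq2 1.42.0 was an alternative.

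The pairing comes from the labels' experiment and batch numbers: deviations from group means correlated at 0.762 to 0.789 between the 3 proliferating pairs. Over all 18 same-experiment pairs of the 12 libraries, across both states, they correlated at 0.225 to 0.789 (mean 0.526). The additive term takes the experiment effect as the same in both states. No libraries were identical. Nothing states separate cultures beyond the experiment numbers, so p-values measure the spread between these samples. Gene positions are RefSeq's (GRCm38.p6), 12327 of the tested symbols matched. Members, lists and the words were chosen with earlier results of these data known. Named genes are those called in any of 5 fits (at most the 15 largest changes each way), the 12 largest values each way at an unadjusted p under 0.01, log2 CPM averaging 2 or more and 1 direction in all 3 experiments, 2 by p and 2 by level from each list, and the cohesin genes; markers apart, Asns and Gdf15 stand outside this rule and were chosen after their values were seen.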

Additional observations from a re-analysis of the deposited data

Results flagged for a closer look

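The list of G1/S and replication genes had medians below 0 in the 3 proliferating pairs (-0.27, -0.15 and -0.01 in experiments 5, 7 and 9) and above 0 in the 3 quiescent pairs (0.48, 0.55 and 0.32). The median over its 55 members of the difference between the knockdown effects, quiescent minus proliferating, was 0.53 on the log2 scale. The difference was not tested for the list. Stag2 itself kept a mean of 21.0% of its control in proliferating and 10.1% in quiescent cells. Among single members, 26 of 55 had an unadjusted p under 0.05 for the difference in edgeR, each in the positive direction, beside 590 of all tested genes (4.76%), and 0 passed the adjusted threshold. In the proliferating pair of experiment 9, only 28 of the 55 members were lower. The G2/M list had a larger median difference, 0.84, with 24 of 60 members under 0.05, 23 of them positive, and 0 past the adjusted threshold. It was not flagged, since its median in proliferating experiment 9 was 0.17.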

How the results depend on the processing

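The count of 3 called genes was 3 in edgeR with no replicate block, 4 with a mean count of at least 50, 7 with a replicate block within each state, 18 with the 6 proliferating libraries, 5 with median-of-ratios size factors, 20 with DESeq2 and 7 with no filter. Leaving out a library or an experiment gave 0 to 2 calls. The difference between the states had 0 calls with no replicate block, 6 with the block within each state, 29 with DESeq2, 1 with no filter, and 0 each time a library or experiment was left out. Stag2 had a log2 fold change of -2.43 to -2.11 with libraries left out; without experiment 9 it was -2.29 with an edgeR adjusted p of 0.0552, the highest of the 9, and was not called. Pdcl3 was called in 1 and Phtf1 in 0 of these 9 fits (adjusted p up to 0.374), with values of -1.24 to -1.10 and -1.07 to -0.96. The difference of the leading word ran from -0.161 to -0.0525, the smallest without the knockdown library of experiment 7. With words in at least 200 genes the leading word was GTGACGC (-0.10), and with the shortest UTR it was ATGACGC (-0.15). Of 27 list medians, 186 of 189 values with all libraries and 192 of 243 with some left out moved by less than the SD over experiments. That SD was each list's own, so it is wide for lists whose experiments differ. The G2/M median was -0.211 in the main fit and -0.103 with no replicate block, and counts as unmoved.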
